A study of Mus musculus with 16 samples.

Results

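Over 12 mouse chromosomes, 719 Mb of 1366.5 Mb held no listed contact of either of a pair of cell cycle gene promoters, in any of 16 circular chromosome conformation capture (4C-seq) libraries. The chromosomes (1, 3, 8, 10 and 12 to 19, build mm9) were divided into windows of 500 kb. Windows starting below 3 Mb, or beyond the last listed site of their chromosome, were left out. The empty windows were chosen by the deposited site lists, as those with no listed site in any library, and 1438 of 2733 windows (52.6%) met this rule. Their number and their emptiness are therefore given as a description. The remaining 1295 windows held a site from both promoters (892), from Cdca3 alone (270) or from Pole alone (133). "Never contacted" would say more than the lists do. They hold only sites that the authors called significant, each with a value below 0.05 (a p-value or a q-value), so an empty window is one without a listed site in the lists used here. Whether these lists are complete over every stretch was not tested.

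The libraries came from mouse embryonic fibroblasts, primary cells grown from E13.5 embryos and used proliferating at passage 4. The groups were Cdca3 Rb1L/L, Cdca3 Rb1+/+, Pole Rb1L/L and Pole Rb1+/+, with 4 libraries each; the labels give each library 1 of 4 pair identifiers, shared by a Rb1L/L and a Rb1+/+ library at each viewpoint. Rb1L/L cells are homozygous for the Rb1L allele and Rb1+/+ cells carry wild-type Rb1; no other allele or agent is named in the labels, which say neither what the members of a pair share nor whether libraries of 1 genotype and identifier at both viewpoints came from the same culture. The viewpoints, from which contacts are read, were the bidirectional promoters of Cdca3 and Usp5 (chromosome 6) and of Pole and Pxmp2 (chromosome 5). Every contact described here is therefore in trans, that is, on a chromosome other than the viewpoint's own.

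Rb1 encodes pRb, which restrains entry into the cell cycle, and the protein made from the L allele is known to be changed in its binding cleft for partners that carry an LXCXE motif. Cdca3 promotes entry into mitosis, Usp5 is a deubiquitinating enzyme, Pole encodes the catalytic part of the leading-strand polymerase epsilon, and the product of Pxmp2 sits in the peroxisomal membrane. In interphase each chromosome occupies its own territory, and contacts between chromosomes are generally sparse. They tend to link chromatin of the same kind. Active, gene-rich segments meet other active segments in the nuclear interior, while gene-poor, late-replicating segments often lie at the nuclear lamina. Trans 4C-seq signal from an active promoter is therefore known to come in patches of megabases separated by long gaps. No annotation of mm9 was used, so the genes and the chromatin state of the empty windows are not given here.

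The number of windows a library left empty moved with its yield. The libraries listed 1396 to 16476 sites on these chromosomes, 112494 in all at 66444 distinct positions, and sequencing depth is unknown because the lists hold no read counts. Single libraries left between 1922 and 2589 of the 2733 windows empty (70.3% to 94.7%). Within a viewpoint, the libraries with more sites left fewer windows empty (Spearman's rho = -0.88 over 8 Cdca3 and -0.95 over 8 Pole libraries, Pearson's r = -0.86 and -0.97, given as a description). Leaving out any 1 library added to the empty set the windows that it alone had listed, 6 to 24 of them, and the empty share then lay between 52.8% and 53.5%.

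Few contacted windows were near the rule by their number of sites, but many were by their number of libraries. Contacted windows held a median of 45 distinct listed sites, with an interquartile range of 15 to 84. Of the 1295 contacted windows, 84 (6.49%) had between 1 and 3 listed sites summed over all libraries. By number of libraries, 222 windows were listed by 1 library, 147 by 2 libraries and 94 by 3, and 7 by all 16. The 369 windows listed by 1 or 2 libraries made up 28.5% of the contacted windows.

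**Figure D1:**
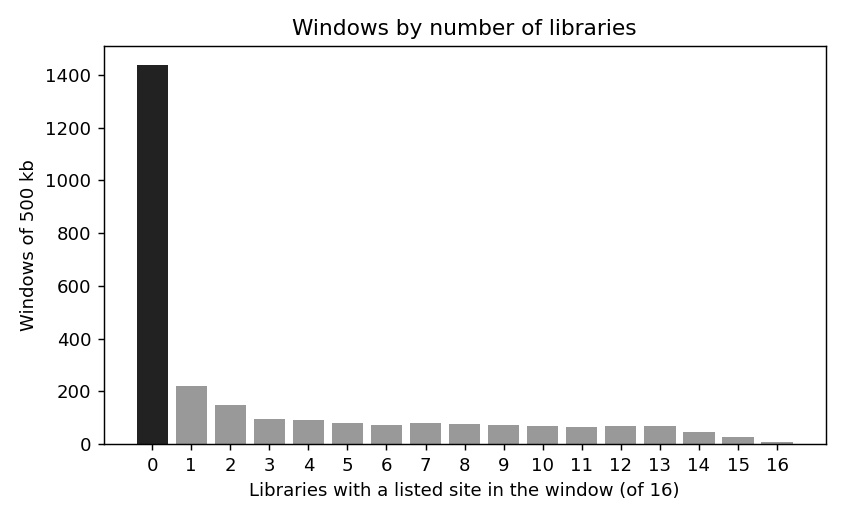
Number of 500-kb windows (vertical axis) by the number of libraries, of 16, that listed a site there (horizontal axis). The black bar is the 1438 empty windows; the grey bars fall to 222 windows at 1 library and 7 at 16.

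Just outside the rule lay 28 windows with exactly 1 listed site over all 16 libraries. In 25 of them the window adjoined an empty one, and in 15 the lone site lay within 50 kb of the window's edge. The deposited values of these sites ran from 0.0129 to 0.0497. Those nearest the centromere on chromosomes 1, 3 and 8 were 70.5 to 71 Mb (Cdca3 Rb1L/L replicate 2, value 0.0497), 66.5 to 67 Mb (Cdca3 Rb1+/+ replicate 4, 0.0367) and 7.5 to 8 Mb (Pole Rb1L/L replicate 3, 0.0371). On chromosomes 10, 12 and 13 they were 20.5 to 21 Mb (Cdca3 Rb1+/+ replicate 2, 0.0380), 41 to 41.5 Mb (Cdca3 Rb1+/+ replicate 3, 0.0373) and 4.5 to 5 Mb (Cdca3 Rb1L/L replicate 2, 0.0438). On chromosomes 14, 15 and 17 they were 18 to 18.5 Mb (Pole Rb1L/L replicate 2, 0.0129), 10.0 to 10.5 Mb (Pole Rb1L/L replicate 2, 0.0373) and 57.5 to 58 Mb (Cdca3 Rb1+/+ replicate 2, 0.0328). On chromosomes 18 and 19 they were 4 to 4.5 Mb (Cdca3 Rb1L/L replicate 1, 0.0335) and 32 to 32.5 Mb (Pole Rb1L/L replicate 3, 0.0379), and chromosome 16 had none. Just inside the rule, 12 empty windows had a listed site within 10 kb beyond their edge and 46 within 50 kb.

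The empty windows formed 200 runs of adjacent windows, alternating with 200 contacted runs. Empty runs had a median length of 2 Mb (interquartile range 1 to 5) and a mean of 3.60 Mb, and contacted runs a median of 2.5 Mb (1.5 to 4.125) and a mean of 3.24 Mb. The empty runs reached further. The longest was 49 windows against 27 windows for the longest contacted run, and 14 empty runs against 8 contacted runs were at least 10 Mb long. Runs of at least 2 Mb numbered 110 and held 88.2% of the empty windows. The 51 runs of at least 5 Mb held 63.9%, and the 15 longest alone held 30.0%. At the other end, 40 runs were a single window. From the centre of an empty window the nearest listed site lay a median of 1.59 Mb away, and for 958 windows (66.6%) it lay over 1 Mb away. The farthest was 22.1 Mb, from the first window of chromosome 3. Within single libraries the longest empty runs were far longer, 37 to 58.5 Mb in Cdca3 Rb1L/L, 36.5 to 51.5 Mb in Cdca3 Rb1+/+, 46 to 81 Mb in Pole Rb1L/L and 49.5 to 82 Mb in Pole Rb1+/+ libraries.

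**Figure D2:**
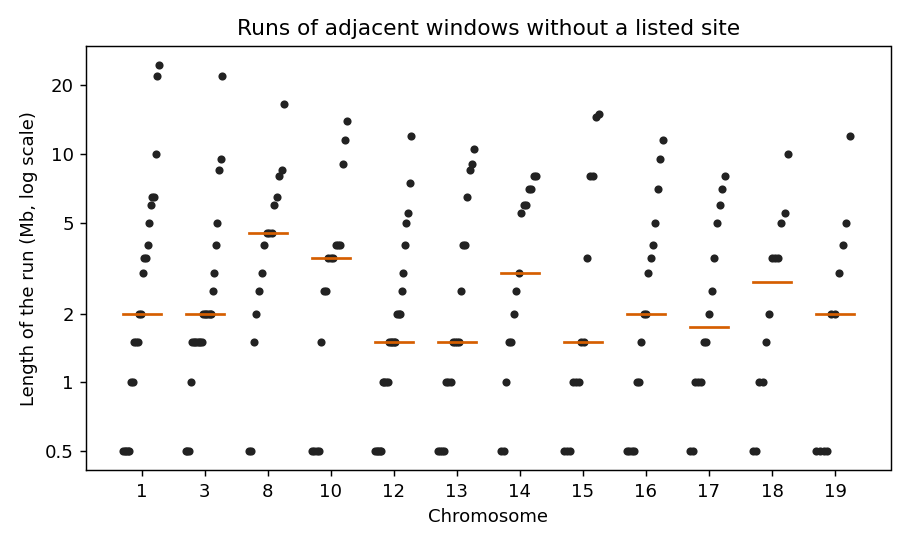
Length of every run of adjacent empty windows (vertical axis, Mb, log scale) on each of 12 chromosomes (horizontal axis). Each point is 1 run and each bar the chromosome's median, which lies between 1.5 Mb on chromosomes 12, 13 and 15 and 4.5 Mb on chromosome 8; the longest run is 24.5 Mb on chromosome 1.

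The longest run lay on chromosome 1 from 96 to 120.5 Mb. Over all 16 libraries no site was listed from 95697468 to 120819035, a stretch of 25.1 Mb. The 8 Cdca3 libraries alone left 32.1 Mb empty there and the 8 Pole libraries 25.2 Mb. The window before the run held sites in 2 of 4 Cdca3 Rb1L/L, 2 of 4 Cdca3 Rb1+/+, 0 of 4 Pole Rb1L/L and 1 of 4 Pole Rb1+/+ libraries, and the window after it in 1 Pole Rb1L/L library only. Chromosome 1 also held the second longest run, from 11 to 33 Mb, within a stretch from 10616850 to 33379822 (22.8 Mb). Its 2 neighbouring windows were listed by 2 libraries and by 1. Another run of chromosome 1, from 141.5 to 151.5 Mb, lay within a stretch of 10.6 Mb (141323539 to 151884495). With these, 215 of its 384 windows were empty, in 23 runs.

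Chromosome 3 opened with 22 Mb of empty windows, from 3 to 25 Mb, and its first listed site lay at 25.3 Mb. It was the longest such opening among the 12 chromosomes, each of which began with at least 1 empty window. The next opening runs were 6.5 Mb on chromosome 1 and 6 Mb on chromosome 14, and those of chromosomes 12, 16 and 19 were 0.5 Mb. The other long run of chromosome 3 reached from 69 to 78.5 Mb (stretch 68994267 to 78971639, 9.98 Mb). On chromosome 8 the longest run was 16.5 Mb, from 50.0 to 66.5 Mb, in a stretch of 17.1 Mb (49531983 to 66638517), and chromosome 8 had the longest median run, 4.5 Mb over 15 runs.

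Chromosomes 10 and 15 each held a pair of the 15 longest runs. On chromosome 10 they lay from 27 to 38.5 Mb (stretch 26683973 to 38698855, 12.01 Mb) and from 44 to 58 Mb (43967379 to 58374993, 14.4 Mb). On chromosome 15 they lay from 12.5 to 27 Mb (12328390 to 27079199, 14.8 Mb) and from 39.5 to 54.5 Mb (39309576 to 54536579, 15.2 Mb), with a further empty run from 28 to 36 Mb between them. The first of the chromosome 15 runs was longer for one promoter than for the other. The Cdca3 libraries left 14.8 Mb around it empty and the Pole libraries 24.2 Mb, and its preceding window was listed by 4 of 4 Cdca3 Rb1L/L, 1 of 4 Cdca3 Rb1+/+, 1 of 4 Pole Rb1L/L and 0 of 4 Pole Rb1+/+ libraries.

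The other chromosomes had longest runs of 8 to 12 Mb. Those of chromosome 12 (57.5 to 69.5 Mb, stretch 57173630 to 69828038) and chromosome 19 (16 to 28 Mb, stretch 15946192 to 28417484) were 12 Mb long. The chromosome 19 run took up 24 of the chromosome's 60 empty windows. Chromosome 16 had 11.5 Mb (45.5 to 57 Mb, stretch 45333108 to 57125276), chromosome 13 had 10.5 Mb (74.5 to 85 Mb, stretch 74080983 to 85338979) and chromosome 18 had 10.0 Mb (14 to 24 Mb, stretch 13631630 to 24102953). Chromosomes 14 and 17 had the shortest maxima, 8 Mb each, from 9.5 to 17.5 Mb (stretch 9436411 to 17941654) and from 15.5 to 23.5 Mb (stretch 15379980 to 23504491). At chromosomes 13, 16 and 19 the Pole stretch was the shorter, through windows that 1 Pole library listed. Cdca3 libraries left 26.5, 18.8 and 17.6 Mb empty around these runs, against 11.3, 12.02 and 12.5 Mb in Pole libraries. Each window next to the chromosome 13 and 19 runs was listed by 1 Pole Rb1+/+ library only. The window before the chromosome 16 run was listed by 1 Pole Rb1L/L library only, with 4 sites.

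Most of these 17 runs ended at windows that few libraries listed. Of the 33 windows next to them, 20 were listed by 1 library, and the most heavily listed, after the chromosome 17 run, by 8 libraries with 75 sites. The same held for all 367 contacted windows that adjoin an empty one, which had a median of 2 libraries and 9 distinct sites, against 8 libraries and 69 distinct sites in the other 928 contacted windows. Such edge windows were 28.3% of contacted windows and held 5.36% of the sites. In them 33.8% of sites had a deposited value under 0.01, against 72.8% elsewhere. By viewpoint, 51.9% of the Cdca3-only windows and 73.7% of the Pole-only windows adjoined an empty window, against 14.5% of the windows listed from both. A window next to an empty one is set by the same lists as the empty one, so these shares are a description.

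**Figure D3:**
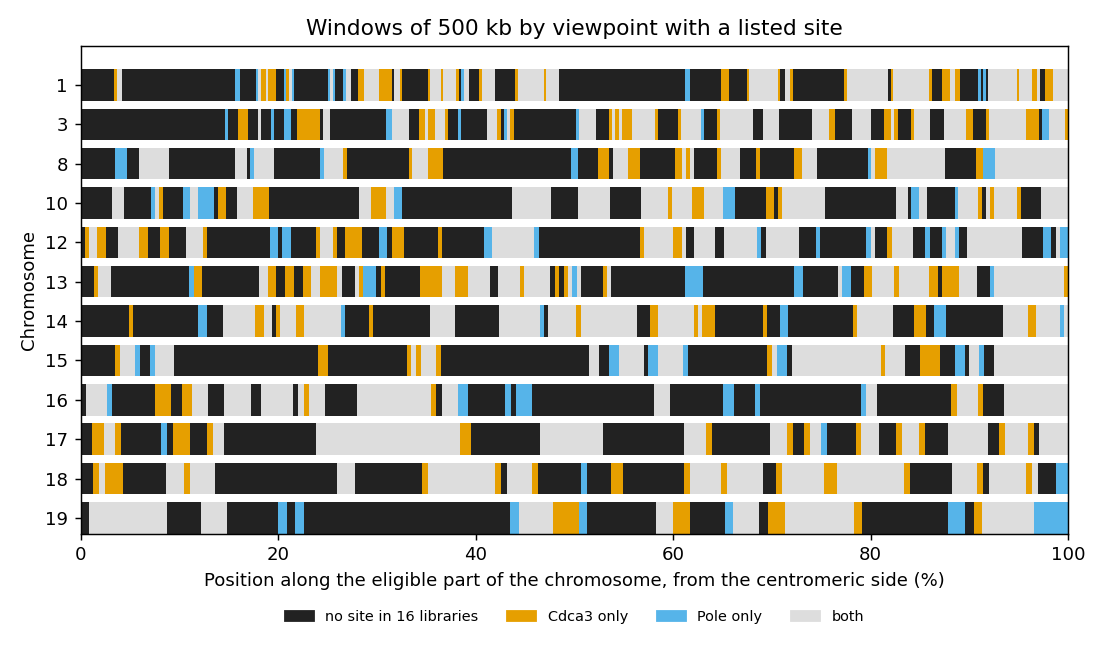
Every 500-kb window of the 12 chromosomes (rows), placed by its position along the eligible part of the chromosome (horizontal axis, %, centromeric side at 0). Black marks the 1438 empty windows, orange the 270 with Cdca3 sites only, blue the 133 with Pole sites only and grey the 892 with both; 51.9% of the orange and 73.7% of the blue windows adjoin a black one.

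The empty share varied little between chromosomes. It was lowest on chromosome 18 (75 of 162 windows, 46.3%) and chromosome 17 (82 of 172, 47.7%), and highest on chromosome 8 (146 of 256, 57.0%) and chromosome 16 (106 of 186, 57.0%). Between these lay chromosomes 13 (49.3%), 14 (49.4%), 12 (50.6%), 10 (52.0%), 19 (52.2%), 3 (52.8%), 1 (55.99%) and 15 (56.5%), and the SD over the 12 was 3.73 percentage points. Protein-coding genes per eligible Mb, counted per chromosome in a later annotation (GRCm38.p6), ranged from 5.78 on chromosome 12 to 12.3 on chromosome 17. The 2 most gene-dense chromosomes, 17 and 19, had empty shares of 47.7% and 52.2%, and the least gene-dense, 12, had 50.6%. Over the 12 chromosomes the empty share showed no clear order by gene density (Spearman's rho = 0.09, Pearson's r = -0.14, a description over chromosomes that share all 16 libraries). The same rule applied to chromosomes 2, 4, 7, 9, 11 and X, which are also in trans to both promoters, left 940 of 1762 windows empty (53.3%), with 51.0% on chromosome 7 and 55.7% on chromosome 11 as the extremes.

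The empty share spread more widely by position along the chromosome. With each eligible stretch divided into 5 equal parts from the centromeric side, 67.4%, 55.4%, 58.6%, 51.7% and 29.7% of the windows were empty. The part nearest the centromere had a higher empty share than the distal part on 11 of 12 chromosomes, and the exception was chromosome 16 (42.1% against 48.6%). Among the 5 parts, the first had the highest share on only 4 chromosomes and the distal part the lowest on 7. The extremes in the distal part were 8.89% on chromosome 13 and 48.6% on chromosome 16. By the rule windows beyond the last listed site are left out, so each chromosome ends with a contacted window. This lowers the distal share by an amount that was not calculated. The opening runs add to the centromeric one, and counted from the first listed site of each chromosome the 5 shares were 60.4%, 56.1%, 54.5%, 53.2% and 29.4%. The distal part was also the lower at each viewpoint, with 71.9% and 35.7% in the first and last part over the 8 Cdca3 libraries, and 76.6% and 41.1% over the 8 Pole libraries. The same order was seen in each genotype, with 71.9% and 34.99% in Rb1L/L and 75.7% and 38.1% in Rb1+/+ libraries.

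**Figure D4:**
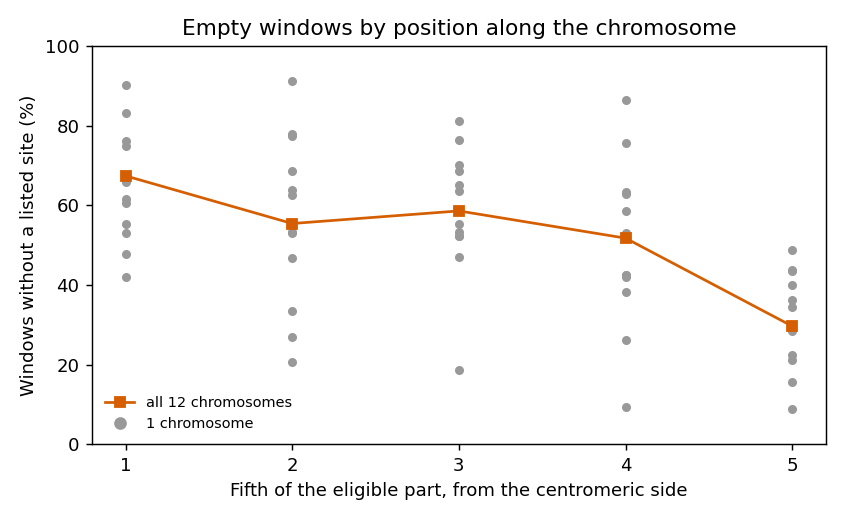
Share of windows without a listed site (vertical axis, %) in 5 equal parts of the eligible stretch, numbered from the centromeric side (horizontal axis). Grey points are single chromosomes and the orange line all 12 together, which runs from 67.4% in part 1 to 29.7% in part 5.

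The promoters, on different chromosomes, left largely the same windows empty. The Cdca3 libraries together left 1571 windows empty (57.5%) and the Pole libraries 1708 (62.5%). Of the windows empty in Cdca3, 91.5% were also empty in Pole, against 23.2% of the windows with a Cdca3 site. In the other direction, 84.2% of those empty in Pole were empty in Cdca3, against 12.98% of those with a Pole site. Neighbouring windows are not independent, so these shares carry no test. By chromosome, 48.1% (chromosome 18) to 62.9% (chromosome 16) of windows were empty in Cdca3 and 57.4% (chromosome 18) to 66.7% (chromosome 1) in Pole. Cdca3 had the higher share on chromosomes 16 and 19, the same share on chromosome 15 and the lower share on the rest.

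Each Cdca3 library left fewer windows empty than the Pole library of the same genotype and pair identifier. These numbers and those of the edge windows come from the site lists that chose the empty windows, so they are given with their spread and no test. The Cdca3 Rb1L/L libraries had 2303, 1964, 1922 and 1963 empty windows (replicates 1 to 4) and the Cdca3 Rb1+/+ libraries 2256, 2146, 1988 and 1982. The Pole Rb1L/L libraries had 2589, 2368, 2223 and 2310 and the Pole Rb1+/+ libraries 2564, 2506, 2247 and 2213. The ranges of the viewpoints overlapped, through the Cdca3 libraries numbered 1, but the Cdca3 library was the lower in 8 of 8 such comparisons. The means were 2065.5 ± 148 at Cdca3 and 2377.5 ± 155 at Pole (SD, n = 8 each), a difference of -312 windows, between -404 and -231 in the single comparisons. Cdca3 libraries also listed more sites, 5692 to 16476 against 1396 to 4767 on these chromosomes. Calculated for 1396 sites drawn from every library, the expected number of empty windows was 2211 ± 96.1 at Cdca3 and 2418 ± 123 at Pole, a difference of -207. The draw takes sites already listed at the library's own yield. It does not show what a library of lower yield would have listed, so the part of yield in the difference was not tested.

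**Figure D5:**
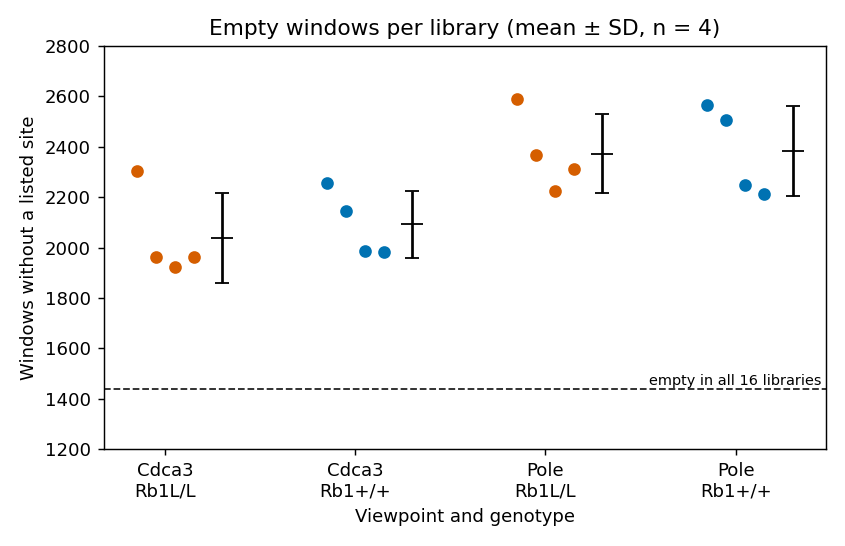
Windows without a listed site, of 2733, in each library (vertical axis) by viewpoint and genotype (orange Rb1L/L, blue Rb1+/+, replicates 1 to 4 from left to right); bars are mean ± SD of 4 libraries. All libraries lie between 1922 and 2589, above the dashed line at the 1438 windows empty in all 16.

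The genotypes overlapped in how many windows they left empty, and their means differed by less than either SD. At Cdca3 the Rb1L/L libraries had 2038 ± 178 empty windows and the Rb1+/+ libraries 2093 ± 133 (SD, n = 4 each), a difference of -55 (lower in 3 of 4 pairs). At Pole the means were 2372.5 ± 156 in Rb1L/L and 2382.5 ± 178 in Rb1+/+ libraries, a difference of -10 (lower in 2 of 4 pairs). Taken over both viewpoints, 1553 windows were empty in all 8 Rb1L/L libraries and 1641 in all 8 Rb1+/+ libraries. Of the 2733 windows, 115 were empty in all Rb1L/L libraries but listed by a Rb1+/+ library, and 203 were the reverse. Of the windows empty in Rb1L/L, 92.6% were empty in Rb1+/+, and in the other direction 87.6%. Within 1 viewpoint the numbers empty in 1 genotype only were 92 (Rb1L/L) and 200 (Rb1+/+) at Cdca3, and 208 and 250 at Pole. Within Cdca3, 1663 windows were empty in all 4 Rb1L/L and 1771 in all 4 Rb1+/+ libraries, of which 1571 were shared. Within Pole the numbers were 1916 in Rb1L/L and 1958 in Rb1+/+ libraries, of which 1708 were shared. The Cdca3 Rb1L/L libraries listed more sites on average, 12124 ± 4860 against 9477 ± 1933 in Cdca3 Rb1+/+ libraries, and the part of yield in this imbalance was not tested.

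The share of sites at the edges of the empty runs was slightly higher in Cdca3 Rb1L/L than in Cdca3 Rb1+/+ libraries. At Cdca3, 5.08%, 6.45%, 4.79% and 5.33% of sites on these chromosomes lay in windows next to an empty one in Rb1L/L libraries (replicates 1 to 4), against 4.19%, 3.61%, 4.79% and 4.48% in Rb1+/+ libraries. The groups did not overlap, by less than the rounding of the replicate 3 values. The means were 5.41% ± 0.729 in Rb1L/L and 4.27% ± 0.502 in Rb1+/+ (SD, n = 4 each), a difference of 1.15 percentage points (higher in 4 of 4 pairs). With windows of 250 kb the Rb1L/L mean was 0.694 points higher, and with windows of 1 Mb 2.05 points higher, but at both lengths the groups overlapped. At Pole the shares were 15.2%, 6.45%, 6.21% and 3.80% in Rb1L/L libraries, against 6.05%, 10.2%, 6.11% and 5.93% in Rb1+/+ libraries. The means were 7.91% ± 5.00 in Rb1L/L and 7.07% ± 2.07 in Rb1+/+ (SD, n = 4 each). They differed by 0.846 points, less than either SD. The difference was -1.58 points without Rb1L/L replicate 1, the library with the fewest sites.

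The authors' significant regions, which the rule did not use directly, reached into the empty windows, in part by construction. A called region touched 493 of the 1438 (34.3%) in at least 1 library, and 945 were touched in none. Over all 2733 windows 65.4% were touched, since the contacted windows were touched by construction (100%). Of the 493, 351 adjoined a contacted window. On these chromosomes all 112494 listed sites lay inside a region of their own library and each of the 1725 regions held a site. The regions extended well beyond their outermost sites, by a median of 0.780 Mb and at least 0.582 Mb on each side, which is longer than 1 window. Every empty window next to a contacted one was therefore touched by construction, and the 351 are such windows. A window without a site can thus lie wholly inside a called region, and 201 of the empty windows did in at least 1 library, 108 of them in exactly 1. That is 13.98% of the empty windows, against 54.7% of all windows and 100% of the contacted ones.

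Called regions reached the ends of runs that adjoin a contacted window, so the share of a run that they touched fell with its length, both by construction. All 40 single-window runs were touched by a called region, as they adjoin a contacted window, and 32 of the windows (80.0%) lay wholly inside one. In runs of 2 or 3 windows 93.8% of windows were touched and 39.5% wholly inside, in runs of 4 to 9 windows 52.6% and 19.7%, and in runs of 10 or more windows 16.1% and 5.33%. Counted per run, 2.42 windows were touched in runs of 2 or 3, 3.12 in runs of 4 to 9 and 2.90 in runs of 10 or more. In the longest run, on chromosome 1, 3 of 49 windows were touched, and no library called more than 0.502 Mb of it.

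Called length over the empty windows overlapped between the genotypes at both viewpoints. Every called region on these chromosomes holds a listed site, and the site lists chose the windows. This length is therefore not independent of the rule, and it is given with its spread and no test. Cdca3 Rb1L/L libraries called 27.0, 52.7, 50.0 and 48.3 Mb of the 719 Mb (replicates 1 to 4) and Cdca3 Rb1+/+ libraries 24.9, 27.2, 45.4 and 47.8 Mb. The means were 44.5 ± 11.8 and 36.3 ± 11.95 Mb (SD, n = 4 each), a difference of 8.18 Mb (higher in 4 of 4 pairs). Pole Rb1L/L libraries called 16.0, 22.6, 32.7 and 18.3 Mb and Pole Rb1+/+ libraries 11.4, 17.9, 31.1 and 28.1 Mb. These means were 22.4 ± 7.41 and 22.2 ± 9.11 Mb, a difference of 0.267 Mb (higher in 3 of 4 pairs). As a share of all that a library called on these chromosomes, the empty windows made up between 5.48% and 11.3%.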

How the data were processed

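4C-seq libraries (HindIII, then NlaIII) were analysed from the files the authors deposited, 2 per library. One lists sites, 94.8% of them here as intervals of 6 bp, and gives each a value that the authors deposited as a p-value or q-value (which is not stated; none reached 0.05). The other lists significant regions by coordinate. Per the submitters' processing notes coordinates are in mm9. The aligner, the caller and its settings were not given in the sources used here. Sites and regions carry only deposited coordinates, with no score and no read count. The empty windows and the lists of runs were chosen with earlier results of these data known. Windows, runs and exact tests were computed in Python 3.11.15 (pandas 2.3.3, numpy 2.4.6, scipy 1.17.1) and tested on simulated lists. Groups were taken from the sample titles. The 7 tests computed are all given as values only. The 5 on listed sites use the lists that chose the windows. Called length is not independent of those lists either, because every region on these chromosomes holds a listed site. Rarefied numbers are hypergeometric expectations. Runs are named by rule: the 15 longest, the longest on each chromosome, and the first window with 1 site on each. Alternatives were other window lengths and starts, sites under 0.01, single libraries or groups left out, and a replicate block. Sequences of the windows are not given, because no mm9 genome was used.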

Additional observations from a re-analysis of the deposited data

Results flagged for a closer look

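Of 20 sets of 4 values examined (measures by group), 3 held a library far from the other 3 of its group; chance flags about 1 in 20. Cdca3 Rb1L/L replicate 1 stood apart with 2303 empty windows, against 1922 to 1964 in the other 3, and with 27.0 Mb called over empty windows, against 48.3 to 52.7 Mb. It listed 5692 sites on these chromosomes, the fewest of the Cdca3 libraries. Pole Rb1+/+ replicate 2 had 10.2% of its sites in windows next to an empty one, against 5.93% to 6.11% in the other 3.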

How the results depend on the processing

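The empty share of 52.6% depended on the window and on the lists: it was 56.7% with windows of 250 kb, 45.0% with 1 Mb, 62.9% over sites with a deposited value under 0.01, 57.5% over Cdca3 and 62.5% over Pole libraries alone, and 56.8% over Rb1L/L and 60.0% over Rb1+/+ libraries alone. Without single libraries it ran from 52.8% to 53.5%, and without both Pole libraries numbered 1, an alternative chosen after seeing the data, it was 53.9%. The difference between viewpoints kept its sign under the alternatives run, and was -324 to -299 windows when a library was left out together with the other viewpoint's library of its genotype and number; with no replicate block it is the same difference of means, -312. The Cdca3 edge share differed by 0.694 points with windows of 250 kb, 2.05 with 1 Mb, 1.14 with windows cut from 250 kb, 1.45 over sites under 0.01, 0.798 to 1.35 without single libraries, and 1.15 with the replicate block. The genotypes overlapped in this share with each of the other window lengths and starts and over sites under 0.01. The Pole genotype differences changed sign. Empty windows went to 17 over sites under 0.01 and from -82.2 to 50.5 without single libraries. Called length went to -0.570 Mb with 1-Mb windows, to -1.16 Mb without both Pole libraries numbered 1, and from -3.31 to 3.26 Mb without single libraries. The edge share went to -1.92 points without both Pole libraries numbered 1, and from -1.58 to 2.22 without single libraries. The cause of these changes was not tested. At Cdca3 the difference in empty windows was -143 when Rb1L/L replicate 1 was left out and -0.667 when Rb1+/+ replicate 1 was, the extremes, and that in called length lay between 4.37 and 14.02 Mb. The labels name the pairs but not what they share. The deviations of same-numbered libraries had correlations of 0.0596 to 0.253 at Cdca3 and 0.00846 to 0.273 at Pole. Those of differently numbered libraries ran from -0.176 to 0.157 at Cdca3 and from -0.202 to 0.137 at Pole, so the ranges overlapped. All same-numbered correlations were positive, however, while the others had both signs. The highest correlation at each viewpoint was that of the libraries numbered 1. What the pairs share was not tested. With 4 pairs no test with the block can reach 0.05, so the block says nothing about the stability of the called-length comparisons.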

Other observations

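On chromosome 1, 4 adjacent empty windows from 85.5 to 87.5 Mb lay wholly inside a called region of the same 5 libraries (2 Cdca3 Rb1L/L, 2 Cdca3 Rb1+/+ and 1 Pole Rb1L/L). No library listed a site from 83215123 to 87922716 (4.71 Mb), and whether the site lists used here are complete over this stretch was not tested. In these 5 libraries the called region began 2.74 to 2.78 Mb before its first listed site. These were the only 5 of 3450 region margins on the 12 chromosomes above 1.5 Mb, against a median of 0.780 Mb. The place was chosen after its values were seen.

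Among the 1438 empty windows, 2 lay wholly inside called regions of at least 8 libraries. The share of all windows at this threshold was not calculated. For at least 1 library it was 54.7% of all 2733 windows and 13.98% of the empty ones. That on chromosome 8 from 71.5 to 72 Mb was covered in 10 (4 of 4 Cdca3 Rb1L/L, 3 of 4 Cdca3 Rb1+/+, 2 of 4 Pole Rb1L/L and 1 of 4 Pole Rb1+/+ libraries), within a site-free stretch of 0.927 Mb. That on chromosome 12 from 88.5 to 89 Mb was covered in 8, within a site-free stretch of 2.27 Mb. These were also chosen after their values were seen.

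Single libraries were alone in listing 6 to 24 windows each. Cdca3 Rb1L/L libraries alone listed 24, 23, 16 and 14 windows (replicates 1 to 4) and Cdca3 Rb1+/+ libraries 11, 13, 11 and 10. Pole Rb1L/L libraries alone listed 24, 12, 16 and 6, and Pole Rb1+/+ libraries 8, 15, 11 and 8. The 2 Rb1L/L libraries numbered 1, with 5692 and 1396 sites the smallest at their viewpoints, each had 24, and Cdca3 Rb1L/L replicate 2, with the most sites (16476), had 23. The values were seen before they were set side by side, and no test was made.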
